A study of Gossypium hirsutum with 24 samples.

Results

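Drought and control samples of upland cotton (Gossypium hirsutum cv. Bikaneri Nerma) were compared at 10 days post anthesis (dpa), when the ovules bear elongating fibre. The members are the 3 arrays of drought plants and the 3 arrays of control plants labelled 10 dpa, 6 of the 24 arrays of a series that also covers 0, 5 and 20 dpa with 3 drought and 3 control arrays each. Drought plants stood in 6 field plots where watering stopped at peak flowering and a rain-out shelter was drawn over the plots during rain, and they were sampled 18 to 19 days later at a soil moisture of 19.5%, which is 50% of that in the control plots. Control plants of the same cultivar grew in 6 adjacent watered plots. RNA came from fibre-bearing ovules, so that seed tissue and fibre were measured together. The labels call the 3 samples of a group biological replicates and do not say which plots or plants each one held. Each sample was hybridised to 1 Affymetrix cotton GeneChip.

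Cotton fibres are single cells of the seed coat epidermis that grow out as very long hairs. While they elongate, turgor pushes against a thin primary wall, which expansins and xyloglucan-modifying enzymes loosen and which pectins, xyloglucan and cellulose rebuild. Ethylene, very-long-chain fatty acids, brassinosteroids, gibberellin and reactive oxygen species are known as promoters of this growth, and microtubules and actin guide the delivery of wall material. Drought is known in plants generally to act through abscisic acid and through factors of the NAC, DREB/CBF, ERF, MYB, WRKY and zinc finger families.

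The deposited values are log2 signals from which the median of the 6 arrays of the stage had been taken for every probe set. They therefore give differences between drought and control ovules but no levels, and genes cannot be compared with each other in level. Values per array below are log2 signals on this centred scale. Differences are log2, drought minus control, given with the standard error of the fit over all 24 arrays, and n is 3 arrays in each group throughout. A difference was called at an adjusted p under 0.05 over 23973 probe sets. The adjusted p-values rest on a spread shared by the 8 groups of the series. In the same kind of fit to the 10 dpa arrays alone, that of NAC5/NAC8 was 5.95e-08 in place of 4.67e-19. In RNA from a whole organ, fewer cells of a type and less RNA per cell cannot be told apart.

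The control probe sets differed between the groups, as the plot of control probe sets by array shows. Spiked poly-A transcripts, which are added to the RNA before labelling, averaged 0.52, 1.08 and 0.53 on the drought arrays, against -0.58, -0.50 and -0.57 on the control arrays, a difference of 1.26. The Trpn control probe sets were left out of these spikes because their values did not move with the others. They differed by -0.089, so the control probe sets did not all share the shift. Hybridisation controls differed by 0.38. Scaling the arrays on the poly-A spikes moves every difference at 10 dpa by -1.26, and scaling on the hybridisation controls moves it by -0.38. A rise under these sizes thus changes direction under that scaling, and a fall becomes larger. The 5' minus 3' signal of the poly-A spikes, a sign of how complete the labelled copies were, was 0.83 higher in the drought group. Replicate 2 of the drought group stood apart with 1.29 in this measure, against 0.18 and 0.17 on the other drought arrays and -0.24 to -0.32 on the control arrays. Differences between this array and the other drought arrays had a standard deviation of 0.279 and 0.285 over all probe sets, against 0.167 to 0.183 for the other pairs of replicates.

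**Figure D1:**
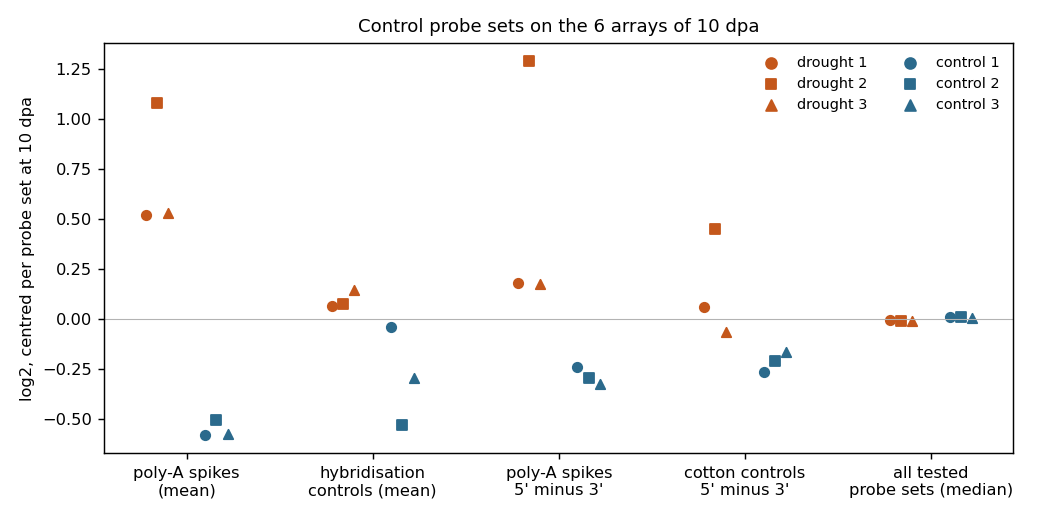
Control probe sets on the 3 drought arrays and the 3 control arrays of 10 dpa, as log2 values centred per probe set, with 1 symbol per array. The poly-A spikes averaged 0.52 to 1.08 on the drought arrays and -0.58 to -0.50 on the control arrays, while the median of all tested probe sets lay near 0 on all 6 arrays.

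Most transcripts on the array differed between drought and control ovules. Of 23973 probe sets, 14445 were called (60.3%), 6831 of them higher (28.5%) and 7614 lower (31.8%) in drought ovules, and 2188 were higher and 2386 lower by at least 2-fold (9.13% and 9.95%). Of the called probe sets 47.3% were higher, against 18.9% after scaling on the hybridisation controls and 5.21% after scaling on the poly-A spikes. The median difference over all probe sets was -0.02. Drought and control arrays did not overlap for 15044 probe sets (62.8%).

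The annotation ties 520 genes to a probe set of their own, which is a small part of the array. Of these, 142 were called higher and 274 lower, beside 28.5% and 31.8% of all probe sets. Their median difference was -0.24, beside -0.02. Counts of the functional groups below are to be read beside the same shares. Informative names were carried by 242 genes, of which 69 were called higher and 125 lower, with a median of -0.21. The arrays of the groups did not overlap for 201 of the 242, beside 62.8% of all probe sets. After scaling on the poly-A spikes 28 of the 242 were called higher and 203 lower, beside 4.94% and 89.9% of all probe sets. After scaling on the hybridisation controls 44 were higher and 158 lower, beside 12.5% and 53.5%. Probe sets with a suffix that marks possible binding to related transcripts read 141 of the 242 genes, and probe sets of antisense design read 23. The plot of differences by functional group shows the whole set, with factors of the NAC, MYB and AP2/ERF families on the higher side and expansins, sterol enzymes, flavonoid enzymes and arabinogalactan proteins on the lower side.

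**Figure D2:**
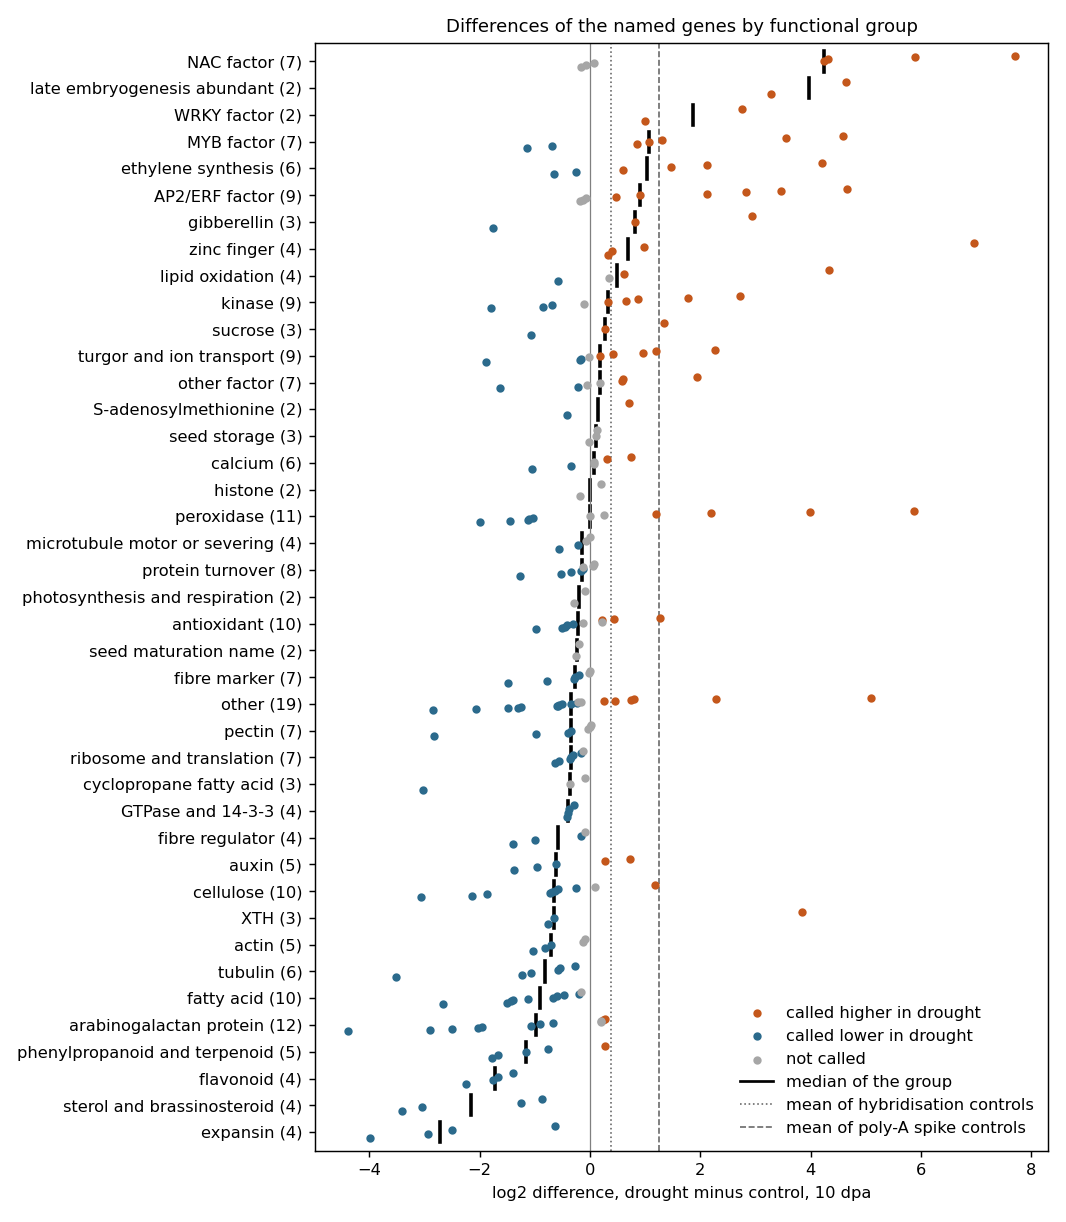
Log2 difference at 10 dpa, drought minus control, of the named genes, 1 point per gene, in groups of at least 2 genes with the number of genes in brackets; bars mark the median of each group. All 4 expansins and all 4 sterol and brassinosteroid genes lie left of 0, and 4 NAC factors lie right of the dashed line at the poly-A spikes' mean of 1.26.

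The largest rises among named genes belonged to NAC and zinc finger factors, families whose members act in stress responses and in development. Of 7 NAC genes 4 rose, all by more than 4 log2 units and so also under both scalings, while the median of the 7 was 4.25. NAC5/NAC8 measured 3.74, 3.63 and 3.59 in drought ovules, against -3.59, -4.02 and -4.55 in control ovules. All drought arrays thus lay far above all control arrays, and the difference of 7.71 ± 0.18 corresponds to 209-fold (adjusted p = 4.67e-19). NAC4 measured 2.66, 3.43 and 2.80 in drought ovules, against -3.34, -2.66 and -2.78 in control ovules. The groups were again far apart, with a difference of 5.89 ± 0.17 and drought replicate 2 the highest. NAC2 and NAC7 rose by 4.32 ± 0.079 and 4.25 ± 0.070, and NAC7 by 3.15 as the mean of its probe sets. The other 3 members were not called: nst3/NACL2, a NAC factor of secondary wall formation, differed by 0.075 ± 0.13, NAC10 by -0.077 ± 0.13 and NAC6 by -0.17 ± 0.080. For nst3/NACL2 the direction is not settled, since with the 5' minus 3' measure of cotton control transcripts in the fit it was called lower at -0.30 and as the mean of its probe sets higher at 0.18.

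ZFP1, a zinc finger protein, measured 3.35, 3.38 and 3.35 in drought ovules, against -3.75, -3.35 and -3.71 in control ovules. Its 3 drought values lay close together and far above the controls, and the rise was 6.97 ± 0.085 or 125-fold (adjusted p = 2.45e-23). All 4 zinc finger genes were called higher, but after scaling on the poly-A spikes this held for ZFP1 alone. Di19-1 and Di19-2, members of a drought-induced family, differed by 0.99 ± 0.10 and 0.32 ± 0.056, and GZFP by 0.39 ± 0.090. Di19-2 also changes direction after scaling on the hybridisation controls.

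**Figure D3:**
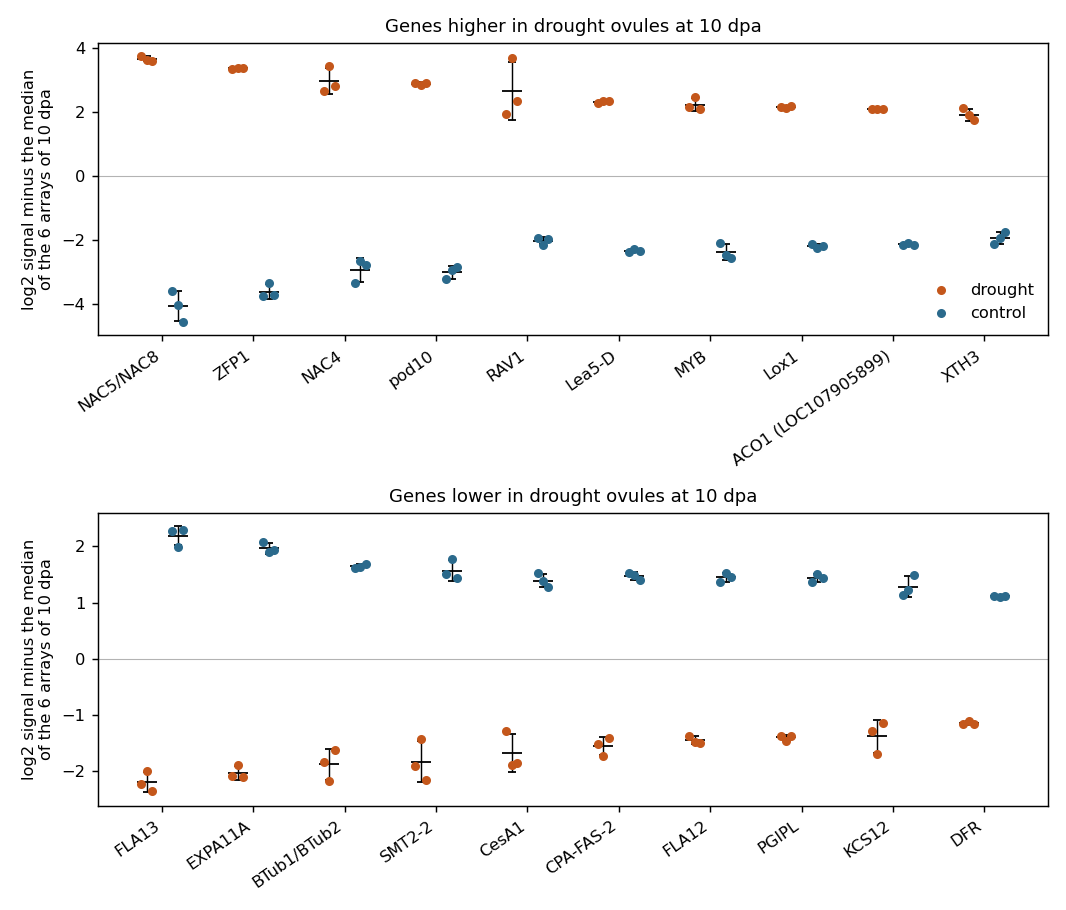
Centred log2 signal on each of the 3 drought arrays and 3 control arrays of 10 dpa for 10 genes that rose and 10 that fell; bars are the mean and standard deviation (n = 3). For all 20 genes the 2 groups are separate, and the widest spread is that of RAV1 in drought ovules, where replicate 2 is highest at 3.67.

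Of 9 AP2/ERF genes 6 rose and 0 fell, 4 of them also after scaling on the poly-A spikes. The family holds ethylene response factors and the DREB/CBF proteins that bind the dehydration-responsive element. RAV1, a factor with AP2 and B3 domains, measured 1.95, 3.67 and 2.32 in drought ovules, against -1.95, -2.15 and -1.96 in control ovules. All drought arrays were above all control arrays, with replicate 2 well above the other drought arrays. Its difference was 4.67 ± 0.25 with and 4.16 without that array. ERF8 rose by 3.47 ± 0.10, CBF17 by 2.84 ± 0.10 and ERF7 by 2.13 ± 0.12. As the mean of its probe sets RAV1 rose by 3.06 and CBF17 by 1.65, so their sizes depend on the probe set. DREB1C/CBF20 and DBP3b were called at 0.91 ± 0.043 and 0.47 ± 0.083, sizes that turn negative after scaling on the poly-A spikes. The other members were not called: ERF3 differed by -0.074 ± 0.055, DBP2/CBF15 by -0.13 ± 0.074 and ERF9 by -0.19 ± 0.099. As the mean of its probe sets ERF9 was called lower at -0.23.

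Among 7 MYB factors 5 were higher and 2 lower, and after scaling on the poly-A spikes 2 were higher. The gene named MYB measured 2.15, 2.45 and 2.08 in drought ovules, against -2.08, -2.45 and -2.55 in control ovules. Its groups were far apart (4.58 ± 0.10, 24-fold). MYB5 rose by 3.55 ± 0.13. GHMYB36 differed by 1.30 ± 0.10, MYB1 by 1.07 ± 0.072 and MYB6 by 0.85 ± 0.053, of which MYB1 and MYB6 turn negative after scaling on the poly-A spikes. GHMYB38 and GHMYB10 fell by 1.13 ± 0.059 and 0.69 ± 0.078. Both WRKY factors were higher, WRKY15 by 2.76 ± 0.14 and WRKY24/WRKY71 by 0.99 ± 0.082, the second of which turns negative after scaling on the poly-A spikes.

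Of 7 other factors 3 were higher and 2 lower, beside 28.5% and 31.8% of all probe sets. HB4, a homeobox factor, rose by 1.95 ± 0.047, while COL5-D, a CONSTANS-like factor, and SEPALLATA3 were called at 0.60 ± 0.047 and 0.57 ± 0.086 and turn negative after scaling on the poly-A spikes. MADS-9 measured -0.83, -0.82 and -0.76 in drought ovules, against 0.80, 0.76 and 0.91 in control ovules, a fall of 1.63 ± 0.093 without overlap. MADS-2 fell by 0.22 ± 0.062, and MADS-3 (0.17 ± 0.079) and MADS-1 (-0.052 ± 0.048) were not called.

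Both annotated late embryogenesis abundant genes, whose products protect proteins and membranes in drying tissue, rose under every scaling. Lea5-D measured 2.29, 2.33 and 2.33 in drought ovules, against -2.36, -2.29 and -2.34 in control ovules. The arrays of each group lay close together, and the rise was 4.64 ± 0.055, 25.0-fold (adjusted p = 1.87e-23). Lea14-A rose by 3.29 ± 0.072, 9.77-fold. Genes of seed filling were not called. LegA, LEGB and vicB_At, which encode legumins and a vicilin, differed by -0.014 ± 0.11, 0.11 ± 0.065 and 0.12 ± 0.087, and Mat5-D and MatP7 by -0.19 ± 0.087 and -0.26 ± 0.12.

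Ethylene is made from S-adenosylmethionine by ACC synthase and then ACC oxidase. Of 6 genes of these 2 steps 4 were higher and 2 lower, and 2 stayed higher after scaling on the poly-A spikes. The ACC oxidase ACO1 (LOC107905899) measured 2.09, 2.09 and 2.09 in drought ovules, against -2.14, -2.09 and -2.15 in control ovules. The 3 drought values were identical, which was so for 1 tested probe set among the drought arrays and for 3 among the control arrays of 10 dpa. The rise was 4.21 ± 0.063, 18.6-fold (adjusted p = 5.38e-22). On centred values a ceiling of the signal cannot be told apart from equal levels, and under a ceiling this fold would be a lower bound. A second gene of that name, ACO1 (LOC107954048), fell by 0.65 ± 0.12, so the copies moved in opposite directions. ACO3 rose by 1.48 ± 0.051, and was not called after scaling on the poly-A spikes. Among ACC synthases, ACS rose by 2.13 ± 0.12 and ACS3/ACS6 was called at 0.61 ± 0.060, which turns negative after scaling on the poly-A spikes, while ACS1 fell by 0.25 ± 0.043. The 4 probe sets of ACS ranged between 0.27 and 4.73. Upstream, S-adenosylmethionine synthetase (SAMS/MAT) fell by 0.41 ± 0.048. S-adenosylmethionine decarboxylase (SAMDC), which diverts the same substrate to polyamines, was called at 0.71 ± 0.039, a rise that is reversed after scaling on the poly-A spikes.

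Lox1, a lipoxygenase that oxidises polyunsaturated fatty acids, had the smallest adjusted p of the 242 named genes. It measured 2.14, 2.12 and 2.19 in drought ovules, against -2.12, -2.23 and -2.20 in control ovules. The difference was 4.34 ± 0.048, 20.2-fold (adjusted p = 8.25e-24). Phospholipase D (pldd) was called at 0.63 ± 0.057, a sign that scaling on the poly-A spikes reverses. Of the genes of peroxisomal beta-oxidation, the acyl-CoA oxidase ACX fell by 0.59 ± 0.16 (-0.22 and not called as the mean of its probe sets) and the multifunctional protein MFP, at 0.34 ± 0.17, was not called.

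Gibberellin binds GID1 receptors, which then mark DELLA repressors such as GAI for destruction. The receptor GID1-2 measured 1.12, 2.61 and 1.09 in drought ovules, against -1.09, -1.35 and -1.56 in control ovules. Drought replicate 2 was again the highest, and the rise was 2.94 ± 0.25 with and 2.44 without it. GID1-4 was called at 0.82 ± 0.098, which turns negative after scaling on the poly-A spikes. The DELLA gene GAI2 measured -0.88, -0.99 and -0.84 in drought ovules, against 0.86, 0.85 and 0.84 in control ovules. It fell by 1.75 ± 0.057 without overlap. Both GID1-4 and GAI2 were read by antisense designs that may also bind related transcripts.

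Of 5 auxin genes 2 were called higher and 3 lower, and the higher ones both turn negative after scaling on the poly-A spikes. ARF1, an auxin response factor read by an antisense design, fell by 1.38 ± 0.049, and the Aux genes, named after the Aux/IAA repressors, differed by -0.97 ± 0.052 (Aux3), -0.62 ± 0.12 (Aux6), 0.73 ± 0.065 (Aux4) and 0.27 ± 0.060 (Aux2), all called. Among 4 sterol and brassinosteroid genes every one fell. SMT2-2, a sterol methyltransferase of the branch towards sitosterol, measured -1.91, -1.43 and -2.15 in drought ovules, against 1.5, 1.77 and 1.43 in control ovules. It fell by 3.40 ± 0.15 and its paralogue SMT2-1 by 3.04 ± 0.045, while SMT1, which acts earlier in the sterol pathway, fell by 1.25 ± 0.047 (adjusted p = 1.75e-15). DET2, the steroid reductase of brassinosteroid synthesis, fell by 0.87 ± 0.070.

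Calcium and kinase genes moved both ways. SOS2, a kinase of the salt overly sensitive pathway, and the calcium sensor CBL2 were called at 0.74 ± 0.044 and 0.30 ± 0.047, and both turn negative after scaling on the poly-A spikes. CBL1, another sensor of that family, fell by 1.06 ± 0.12, while CBL3 (0.075 ± 0.069) was not called. Of the annexins, AnnGh1 fell by 0.34 ± 0.046 and Anx1 (0.078 ± 0.039) was not called. Of 9 kinase genes 5 were higher and 3 lower, beside 28.5% and 31.8% of all probe sets. After scaling on the poly-A spikes 2 of them stayed higher. MPK3 (LOC107959059), a mitogen-activated protein kinase, measured 1.24, 1.34 and 1.48 in drought ovules, against -1.44, -1.45 and -1.24 in control ovules. It rose by 2.73 ± 0.14, although its 6 probe sets ranged between 0.01 and 3.06. MAPKKK, a kinase at the head of such cascades, rose by 1.78 ± 0.077. MPK23, MPK14 and MPK6 (LOC107903096) were called at 0.88 ± 0.083, 0.65 ± 0.059 and 0.33 ± 0.062, all of which turn negative after scaling on the poly-A spikes. PK1 fell by 1.79 ± 0.070, the receptor-like kinase grlk5 by 0.84 ± 0.052 and CRK1 by 0.68 ± 0.055, and SERK1 (-0.099 ± 0.10) was not called, but was lower as the mean of its probe sets (-0.64). The small GTPases RacA, Rac9 and Rab7 and the 14-3-3 protein 14-3-3L all fell, by 0.29 (14-3-3L) to 0.42 (Rac9).

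The 4 expansins, which loosen the wall of growing cells, all fell, and 3 of them by more than 2 log2 units. EXPA11A measured -2.09, -1.89 and -2.11 in drought ovules, against 2.08, 1.89 and 1.93 in control ovules. Every drought array lay far under every control array, and the fall was 4.0 ± 0.12, 15.9-fold (adjusted p = 1.88e-17). EXPA3D fell by 2.93 ± 0.10, EXPA4/EXPA13D by 2.51 ± 0.098 and EXP1/EXPA1 by 0.63 ± 0.061. Xyloglucan endotransglucosylases, which cut and rejoin the xyloglucan tethers of the wall, did not share one direction. XTH3 measured 2.11, 1.89 and 1.74 in drought ovules, against -2.11, -1.92 and -1.74 in control ovules. It rose by 3.84 ± 0.098, 14.3-fold, also under both scalings. XTH and XTH1 fell by 0.75 ± 0.16 and 0.65 ± 0.10.

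Fasciclin-like arabinogalactan proteins, which are surface glycoproteins tied to cell adhesion and to fibre growth, were mostly lower. Of 12 genes 8 fell and 2 were called higher, and their median was -0.99; the 2 higher ones, FLA6 (0.28 ± 0.072) and FLA4 (0.24 ± 0.055), turn negative under both scalings, and FLA6 was not called as the mean of its probe sets (0.11). FLA13 measured -2.23, -2.0 and -2.35 in drought ovules, against 2.28, 2.0 and 2.29 in control ovules. It had the largest fall of all named genes, 4.38 ± 0.080 or 20.8-fold (adjusted p = 1.05e-20), and its other probe set fell by 1.80. FLA12 measured -1.36, -1.49 and -1.49 in drought ovules, against 1.36, 1.53 and 1.45 in control ovules, a fall of 2.90 ± 0.063. The next in size were FLA15, which fell by 2.51 ± 0.056, FLA11 by 2.02 ± 0.090, FLA19 by 1.95 ± 0.11, FLA14 by 1.06 ± 0.087 (-0.49 as the mean of its probe sets), FLA18 by 0.91 ± 0.15 and FLA2 by 0.67 ± 0.13. FLA7 and FLA16 were not called, at 0.21 ± 0.096 and 0.20 ± 0.11. FLA7 depended on single arrays, with a call without drought replicate 1 (0.26), drought replicate 2 (0.28) or control replicate 2 (0.30), and 0.074 without drought replicate 3; it was also called with the 5' minus 3' measure of cotton control transcripts in the fit (0.36). The other probe set of FLA12 fell by 0.35 only, so within this family the size of a fall depends on the probe set.

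Pectin genes were lower or not called. PGIPL, named after inhibitors of pectin-cutting polygalacturonases, measured -1.37, -1.46 and -1.37 in drought ovules, against 1.37, 1.5 and 1.44 in control ovules. It fell by 2.84 ± 0.047, 7.14-fold (adjusted p = 2.13e-21). Of the enzymes that make sugar donors for pectin, UGD2, a UDP-glucose dehydrogenase, fell by 0.98 ± 0.068 and RHM3, a UDP-rhamnose synthase, by 0.39 ± 0.048, while the UDP-glucuronate epimerases GAE2 (-0.035 ± 0.082) and GAE3 (0.014 ± 0.068) were not called. Pectate lyase (Pel) fell by 0.35 ± 0.10 on the chosen probe set and by 2.19 on its other one. The polygalacturonase G9 was not called at 0.0059 ± 0.076.

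Of 10 genes of cellulose and other wall glycans 8 fell and 1 was higher. CesA1, a catalytic subunit of cellulose synthase that was read by antisense designs, measured -1.28, -1.89 and -1.85 in drought ovules, against 1.52, 1.38 and 1.28 in control ovules. It fell by 3.06 ± 0.11, 8.35-fold, and its other probe set by 2.76. GRPL1/rgp1 measured -1.36, -0.84 and -1.41 in drought ovules, against 0.94, 0.99 and 0.84 in control ovules. Its 4 probe sets all fell, by 0.97 to 2.65, with 2.13 ± 0.14 on the chosen one. The chitinase-like gene CTL1, whose counterparts act in cellulose deposition, was called at 1.18 ± 0.080, just under the poly-A shift, and turns slightly negative after scaling on the poly-A spikes. GLU fell by 1.86 ± 0.059, ManA2 by 0.73 ± 0.064, the galactosyltransferase GalT1 by 0.68 ± 0.15, BC1 by 0.63 ± 0.17, the cellulose synthase-like CslD1 by 0.58 ± 0.14 and the endo-glucanase CEL by 0.25 ± 0.065. UGT1 was not called at 0.091 ± 0.080.

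All 6 tubulin genes fell, with a median of -0.82. BTub1/BTub2, a beta-tubulin, measured -1.84, -2.17 and -1.61 in drought ovules, against 1.61, 1.63 and 1.69 in control ovules. It fell by 3.52 ± 0.13, 11.4-fold, more than any other cytoskeletal gene. BTub3 and BTub4 fell by 1.23 ± 0.043 and 1.06 ± 0.055, and the alpha-tubulins TubA2, TubA1/TUA6 and TubA4/TUA10 by 0.58 ± 0.047, 0.55 ± 0.047 and 0.27 ± 0.053. All 6 were read by probe sets that may bind related tubulins. Of 5 actin genes 3 fell, ACT7 by 1.03 ± 0.056, ACT4 by 0.81 ± 0.048 and ACT11 by 0.71 ± 0.064, whereas ACT1 (-0.095 ± 0.066) and ACT10 (-0.12 ± 0.085) were not called. GhCAP, a cyclase-associated protein that binds actin, fell by 0.84 ± 0.072. The kinesin kch2 fell by 0.55 ± 0.13 and the microtubule-severing katanin KTN1 by 0.21 ± 0.065, while the kinesins KCH1 (-0.064 ± 0.14) and KIS13A1/CMK1 (-0.0042 ± 0.049) were not called. The call of KTN1 was lost without drought replicate 2 (-0.13).

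Of 10 genes of fatty acid synthesis and elongation 9 fell and 0 rose. KCS12, a ketoacyl-CoA synthase of very-long-chain fatty acid elongation, measured -1.29, -1.70 and -1.14 in drought ovules, against 1.14, 1.22 and 1.49 in control ovules. It fell by 2.66 ± 0.13 (adjusted p = 1.1e-13), against 1.40 ± 0.072 for FDH/KCS45 and 0.21 ± 0.070 for KCS38. KCS10 was not called at -0.16 ± 0.10, and KCS38 lost its call without drought replicate 2 (-0.11), without control replicate 2 (-0.16) and with the 5' minus 3' measure of cotton control transcripts in the fit (-0.054). ACBP, an acyl-CoA binding protein, fell by 1.51 ± 0.059, the omega-3 desaturase FAD78 by 1.42 ± 0.091 and the plastid synthases KASIII and KASII by 1.13 ± 0.059 and 0.67 ± 0.039. The thioesterase FatB1 and the desaturase sad1 fell by 0.59 ± 0.065 and 0.47 ± 0.052. The cyclopropane fatty acid synthases, which make fatty acids typical of the mallow family, differed among themselves. CPA-FAS-2 measured -1.52, -1.72 and -1.40 in drought ovules, against 1.53, 1.49 and 1.40 in control ovules. It fell by 3.02 ± 0.066, 8.11-fold, whereas CPA-FAS-1 (-0.37 ± 0.18) and CPA-FAS-3 (-0.097 ± 0.12) were not called.

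Sucrose synthase splits sucrose that reaches the fibre and feeds both turgor and cellulose. Sus1 measured -0.56, -0.50 and -0.59 in drought ovules, against 0.50, 0.54 and 0.51 in control ovules. It fell by 1.07 ± 0.040 without overlap. SusA1 measured 0.18, 2.48 and 0.45 in drought ovules, against -0.18, -0.19 and -0.55 in control ovules. The rise of 1.35 ± 0.38 was carried by drought replicate 2, without which it was 0.63, and with the 5' minus 3' measure of cotton control transcripts in the fit it was 0.19 and not called. susC was called at 0.26 ± 0.054, a sign that both scalings reverse.

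Of 9 genes of turgor and ion transport 5 were called higher and 3 lower, beside 28.5% and 31.8% of all probe sets. After scaling on the poly-A spikes 1 of them stayed higher. That gene, NHX1, a vacuolar exchanger of sodium or potassium for protons, measured 1.10, 1.19 and 1.03 in drought ovules, against -1.34, -1.03 and -1.14 in control ovules. It rose by 2.27 ± 0.064, 4.84-fold (adjusted p = 1.3e-17). The transporter MFS, the cyclic nucleotide-gated channel CNGC2, the vacuolar pyrophosphatase VP and KT were called at 1.20 ± 0.057, 0.96 ± 0.068, 0.42 ± 0.061 and 0.18 ± 0.049, all of which turn negative after scaling on the poly-A spikes, and KT also on the hybridisation controls. NIP6.1, an aquaporin-type channel, measured -0.94, -1.08 and -0.67 in drought ovules, against 1.25, 1.05 and 0.67 in control ovules. It fell by 1.89 ± 0.13. The phosphoenolpyruvate carboxylase PEPC1 fell by 0.18 ± 0.048 and the vacuolar ATPase subunit DET3 by 0.17 ± 0.072, a call lost when any of 4 arrays was left out. VATE, another subunit of that pump, was not called at -0.019 ± 0.037.

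All 4 flavonoid genes fell, with a median of -1.72. DFR, the reductase on the way to anthocyanins and proanthocyanidins, measured -1.16, -1.10 and -1.16 in drought ovules, against 1.12, 1.10 and 1.12 in control ovules. The arrays of each group lay close together, and the fall was 2.25 ± 0.055, 4.76-fold (adjusted p = 1.35e-18). The chalcone synthases CHS3, CHS6 and CHS2, which open the pathway, fell by 1.77 ± 0.050, 1.67 ± 0.13 and 1.39 ± 0.15. Of the phenylpropanoid genes, the cinnamoyl-CoA reductase CCR1 measured -1.13, -0.80 and -0.94 in drought ovules, against 0.86, 0.82 and 0.80 in control ovules, a fall of 1.78 ± 0.076. The caffeoyl-CoA O-methyltransferase CCoAMOT2 fell by 0.77 ± 0.067. The cadinene synthase cdn1, an enzyme of gossypol synthesis, fell by 1.67 ± 0.15. The P450 reductase CPR2 fell by 1.16 ± 0.065, while CPR1 was called at 0.27 ± 0.064, a sign that both scalings reverse.

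Class III peroxidases, which make or use hydrogen peroxide in the wall, split into opposite directions. Of 11 genes 4 were higher and 5 lower, and all 9 differed by at least 2-fold. After scaling on the poly-A spikes 3 stayed higher. pod10, read by an antisense design, measured 2.91, 2.84 and 2.90 in drought ovules, against -3.22, -2.93 and -2.84 in control ovules. The difference was 5.88 ± 0.10, 58.8-fold (adjusted p = 5.82e-21). pod7 measured 1.98, 1.99 and 1.97 in drought ovules, against -1.97, -2.05 and -2.01 in control ovules, a rise of 3.99 ± 0.083. POX5 rose by 2.19 ± 0.076, and pod1 was called at 1.20 ± 0.063, which turns slightly negative after scaling on the poly-A spikes. On the other side, pod5 measured -1.17, -1.10 and -0.91 in drought ovules, against 0.91, 0.99 and 0.91 in control ovules. It fell by 2.0 ± 0.12, POX9 by 1.44 ± 0.11, pox by 1.13 ± 0.11, peroxidase (LOC107905931) by 1.10 ± 0.055 and POX10 by 1.03 ± 0.11. pod3 (0.25 ± 0.12) and pod6 (-0.0059 ± 0.092) were not called.

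Of 10 antioxidant genes 3 were higher and 5 lower, beside 28.5% and 31.8% of all probe sets. After scaling on the poly-A spikes 0 of them were called higher. The catalase CAT2/SU2 measured 0.82, 0.51 and 0.64 in drought ovules, against -0.62, -0.70 and -0.51 in control ovules, a rise of 1.27 ± 0.080. The ascorbate peroxidase gAPX and a glutathione S-transferase, GST (LOC107889738), were called at 0.22 ± 0.045 and 0.45 ± 0.10 and turn negative after scaling on the poly-A spikes, gAPX also on the hybridisation controls. The 3 probe sets of GST (LOC107889738) ranged between 0.45 and 3.79, and their mean was called higher at 1.74. That mean exceeds the poly-A shift of 1.26, so the change of sign belongs to the chosen probe set. DHAR1, which regenerates ascorbate, fell by 0.98 ± 0.077. GST (LOC107948407) fell by 0.51 ± 0.056, the copper-zinc superoxide dismutase CSD2 by 0.46 ± 0.039, the germin-like Glp1 by 0.41 ± 0.050 and the stromal ascorbate peroxidase sAPX by 0.30 ± 0.10, a call lost when any of 3 arrays was left out. The superoxide dismutases FeSOD (0.21 ± 0.12) and MnSOD (-0.13 ± 0.13) were not called, but FeSOD was called higher without control replicate 1 (0.37) and MnSOD lower as the mean of its probe sets (-0.34).

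Genes of protein synthesis were slightly lower. Of 7 ribosomal and elongation factor genes 6 fell, RPL44 by 0.64 ± 0.10, EF1A7 by 0.57 ± 0.072, RPL37A by 0.36 ± 0.075, RPS16 by 0.35 ± 0.084, EF1A1 by 0.31 ± 0.045 and EF1A2 by 0.16 ± 0.055, while RPS4 (-0.12 ± 0.063) was not called. The call of EF1A2 was lost without drought replicate 2 (-0.14) or control replicate 3 (-0.11). Of 8 genes of protein turnover 5 fell, beside 31.8% of all probe sets. ASP3 measured -1.10, -0.36 and -1.17 in drought ovules, against 0.36, 0.44 and 0.37 in control ovules, a fall of 1.27 ± 0.17. The proteasome subunit psmB1 fell by 0.52 ± 0.051, CLP by 0.34 ± 0.066, cys1 by 0.17 ± 0.044 and the disulfide isomerase GHPDI12 by 0.13 ± 0.049, the last of which lost its call without drought replicate 1 (-0.13), drought replicate 2 (-0.12) or control replicate 1 (-0.10). SKD1 (0.059 ± 0.041), SCP (0.065 ± 0.23) and paC1 (-0.12 ± 0.056) were not called. Histones HIS3 and HIS2B differed by 0.19 ± 0.17 and -0.18 ± 0.087, Rubisco activase (RCA1) by -0.30 ± 0.13 and the alternative oxidase AOX1 by -0.099 ± 0.11, none of them called.

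Of 7 marker genes known from fibre 5 fell and 2 were not called, beside 31.8% of all probe sets called lower. E6, an abundant fibre protein of unknown function, measured -0.087, -0.24 and -0.047 in drought ovules, against 0.19, 0.047 and 0.19 in control ovules. The groups were close, and the fall of 0.27 ± 0.083 was lost without drought replicate 2 (-0.21) and with the 5' minus 3' measure of cotton control transcripts in the fit (-0.19). The fibre lipid transfer protein FSLTP2 was not called at -0.015 ± 0.071, but was lower as the mean of its probe sets (-0.24). Rac13 was not called either, at -0.0015. Ghfe1 measured -0.83, -0.64 and -0.86 in drought ovules, against 0.64, 0.77 and 0.73 in control ovules, a fall of 1.49 ± 0.061. H6L, a proline-rich wall protein, fell by 0.78 ± 0.10, GhCASPL2A1/f15 by 0.29 ± 0.045 (-0.031 and not called as the mean of its probe sets) and Fb2 by 0.19 ± 0.059, which was not called with the covariate (-0.15). Of 4 regulators of fibre development 3 fell. myb109, a MYB factor of fibre initiation and elongation, measured -0.81, -0.67 and -0.65 in drought ovules, against 0.65, 0.75 and 0.67 in control ovules, a fall of 1.40 ± 0.098. HOX3, a homeodomain factor required for elongation, measured -0.43, -0.53 and -0.58 in drought ovules, against 0.43, 0.53 and 0.49 in control ovules, a fall of 1.00 ± 0.095. GHDEL61/bHLH110D fell by 0.17 ± 0.061, a call lost without drought replicate 2 or control replicate 1 (-0.12 each), and GHTTG1 (-0.097 ± 0.053) was not called. Because the values are centred, the level of these markers cannot show how much fibre the samples held.

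Of 19 named genes outside these groups 6 were called higher and 11 lower, 2 of them higher after scaling on the poly-A spikes. GEPH, read by an antisense design, measured 2.52, 2.47 and 2.61 in drought ovules, against -2.53, -2.68 and -2.47 in control ovules, a rise of 5.09 ± 0.089. CBP3 rose by 2.29 ± 0.082. CMDR1 measured -1.31, -1.62 and -1.41 in drought ovules, against 1.52, 1.37 and 1.31 in control ovules, a fall of 2.84 ± 0.090. Ssh2 fell by 2.07 ± 0.067, ANT1 by 1.48 ± 0.067, PAP10 by 1.31 ± 0.070 and the apyrase APY1, which degrades extracellular nucleotides, by 1.25 ± 0.054. The remaining genes differed by less than 2-fold.

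Among the 278 genes without an informative name 73 were called higher and 149 lower, with a median of -0.26, beside 28.5% and 31.8% of all probe sets and their median of -0.02. The largest rises were those of LOC107915836 (8.42 ± 0.086, 343-fold), LOC107889072 (7.68 ± 0.12) and LOC107947008 (7.50 ± 0.099), and the first of these exceeded every named gene. LOC107915836 measured 4.20, 4.09 and 4.16 in drought ovules, against -4.31, -4.41 and -4.09 in control ovules. The 4 probe sets of LOC107889072 did not share a direction and ranged between -0.98 and 8.43. The largest falls were those of LOC107914734 (-5.07 ± 0.088, 33.5-fold lower), LOC107927831 (-3.44 ± 0.12) and LOC107895262 (-3.42 ± 0.11). LOC107914734 measured -2.44, -2.69 and -2.46 in drought ovules, against 2.59, 2.58 and 2.44 in control ovules, without overlap.

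The drought effect at 10 dpa was then set against the mean effect at 0, 5 and 20 dpa in the same fit. The difference was called for 13729 of 23973 probe sets (57.3%), 6561 higher (27.4%) and 7168 lower (29.9%) at 10 dpa. Of the 242 named genes 81 were higher and 105 lower at 10 dpa than at the other stages. These stages differed in tissue, since 0 and 5 dpa are labelled without the words fibre-bearing, and 20 dpa follows the main phase of elongation. The spikes differed by stage as well, by 0.22 at 0 dpa, -0.24 at 5 dpa, 1.26 at 10 dpa and 1.10 at 20 dpa, and their part in these differences was not tested beyond the scaling.

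NAC5/NAC8 showed the largest difference, with effects of -0.13 at 0 dpa, 4.73 at 5 dpa, 7.71 at 10 dpa and -2.26 at 20 dpa, so that the effect at 10 dpa exceeded the mean of the others by 6.93 ± 0.21. ZFP1 showed -2.34, 4.44, 6.97 and 0.94 over the same stages. Lea5-D showed 0.37, 2.57, 4.64 and 0.13. The plot of effects by stage shows that these genes peaked at 10 dpa after a rise at 5 dpa. FLA13 showed -0.033, -1.72, -4.38 and 0.020, and EXPA11A 0.27, -0.95, -4.0 and 0.65. These falls were likewise deepest at 10 dpa, and EXPA11A was higher in drought ovules at 20 dpa. That rise of 0.65 is under the 1.10 by which the poly-A spikes differed at 20 dpa, so its direction depends on the scaling.

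**Figure D4:**
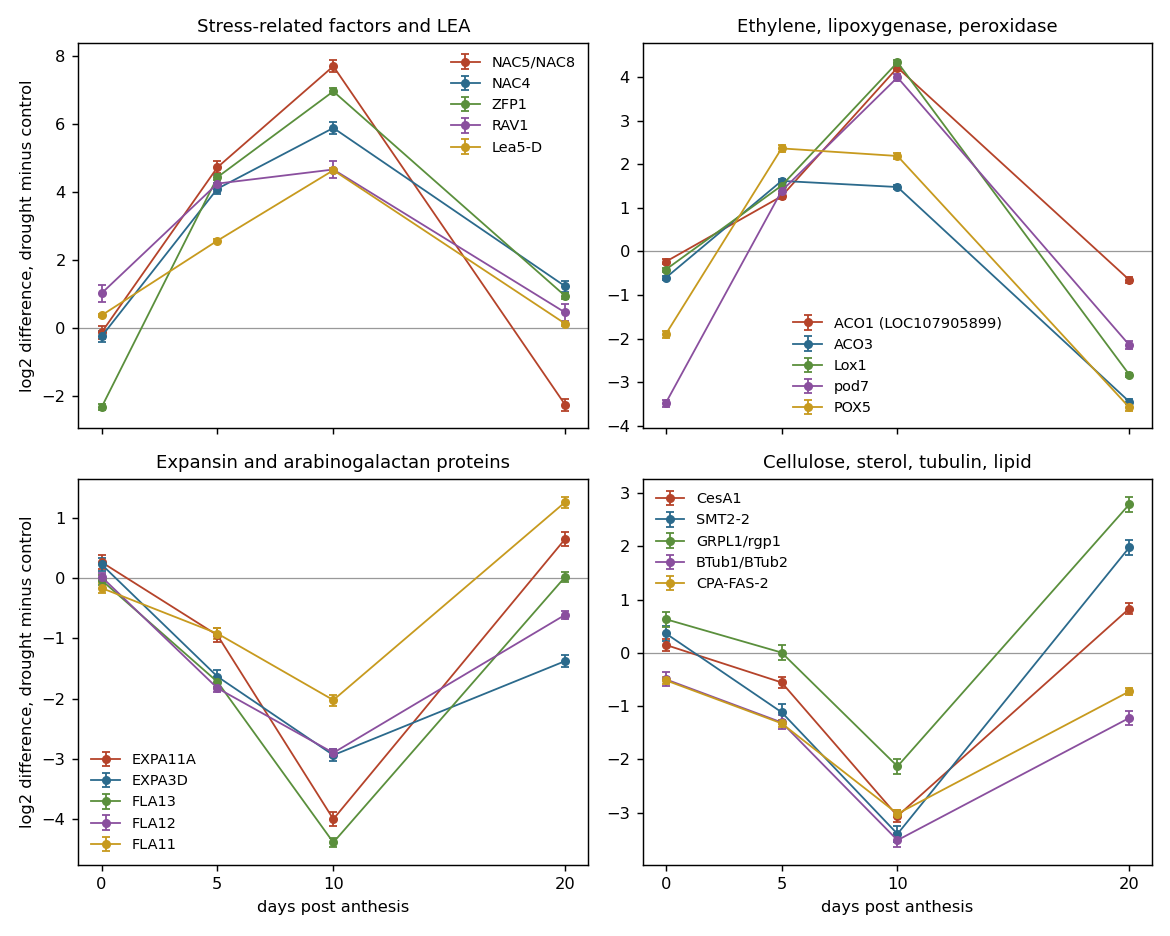
Drought effect (log2, drought minus control) and standard error at 0, 5, 10 and 20 dpa for 20 named genes in 4 panels. NAC5/NAC8 reaches 7.71 and FLA13 -4.38 at 10 dpa, and ACO3, Lox1, pod7 and POX5 are above 0 at 5 and 10 dpa and below 0 at 0 and 20 dpa.

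Of the 69 named genes higher at 10 dpa, 60 were also called higher at 5 dpa, 16 at 0 dpa and 22 at 20 dpa. Of all 6831 probe sets higher at 10 dpa, 59.9% were higher at 5 dpa, 23.0% at 0 dpa and 34.2% at 20 dpa. Over all 23973 probe sets, 24.8% were called higher and 33.4% lower at 5 dpa, 21.4% and 22.9% at 0 dpa, and 26.0% and 34.0% at 20 dpa. The named genes lower at 10 dpa numbered 125, of which 96 were also called lower at 5 dpa, 47 at 0 dpa and 60 at 20 dpa, beside 69.1%, 29.0% and 47.2% of the 7614 probe sets lower at 10 dpa. A group of 16 named genes was called lower at 0 dpa, higher at 5 and 10 dpa and lower at 20 dpa, as 10.9% of the 6831 probe sets were. It holds the factors ERF7, ERF8, CBF17, MYB6 and WRKY15, the ethylene genes ACO1 (LOC107905899) and ACO3, the peroxidases pod7, pod10 and POX5, and also Lox1, XTH3, gAPX, SOS2, GID1-4 and MFS.

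Some genes moved in opposite directions at 10 dpa and at 0 and 20 dpa. pod7 rose by 3.99 at 10 dpa, against -3.48 at 0 dpa, 1.39 at 5 dpa and -2.15 at 20 dpa. POX5 rose by 2.19, against -1.90, 2.36 and -3.58 at 0, 5 and 20 dpa. GRPL1/rgp1 fell by 2.13 at 10 dpa, whereas it was higher in drought samples at 0 dpa (0.63) and 20 dpa (2.79) and 0.0065 at 5 dpa. ASP3 fell by 1.27 at 10 dpa, with 0.85, -0.50 and 2.66 at 0, 5 and 20 dpa. SMT2-2, lower by 3.40 at 10 dpa, was higher by 1.98 at 20 dpa.

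Other genes with a large effect at another stage had a smaller one at 10 dpa. The polygalacturonase G9 differed by 7.95 at 0 dpa and by 0.0059 at 10 dpa. DBP3b differed by 1.68, 2.32 and 3.65 at 0, 5 and 20 dpa, against 0.47 at 10 dpa, and ACS3/ACS6 by 1.23, 3.01 and 3.79, against 0.61. WRKY24/WRKY71, MFP and SusA1 were likewise higher in drought samples at each other stage, and their effects at 10 dpa lay under the mean of the other stages (-1.49, -1.63 and -1.19). Rubisco activase, at -0.30 at 10 dpa, stood at -3.46 at 5 dpa.

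**Figure D5:**
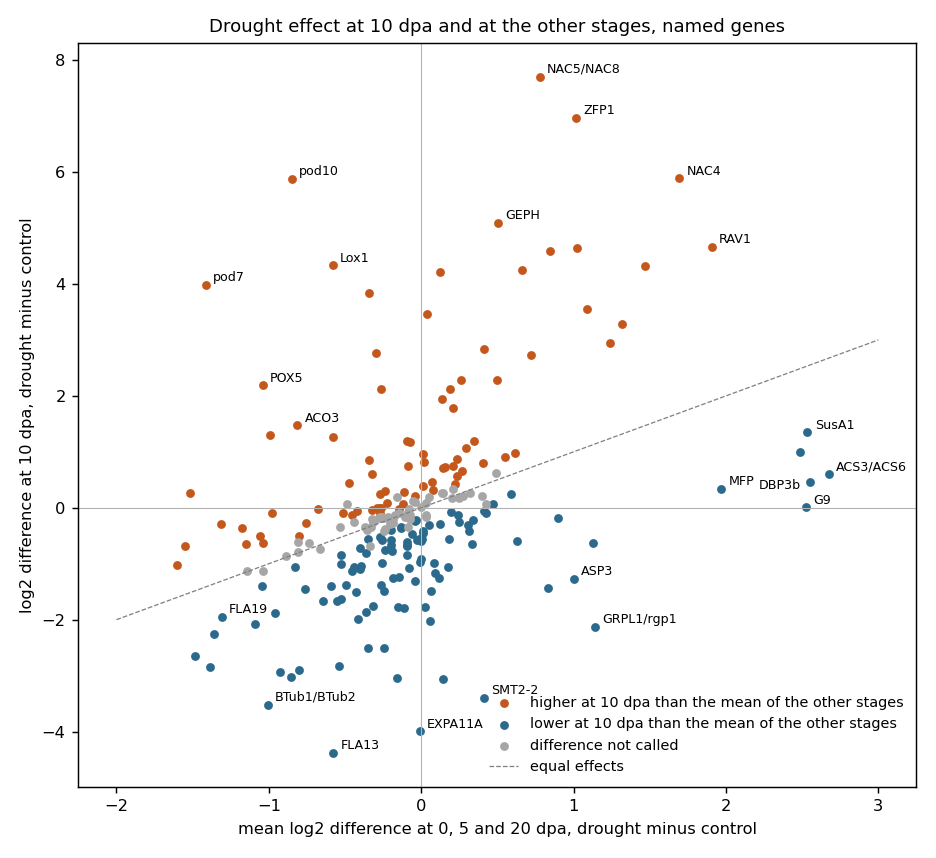
Log2 difference at 10 dpa against the mean log2 difference at 0, 5 and 20 dpa, drought minus control, for the 242 named genes; colour shows whether the 2 differ by the test in the fit. The 81 genes higher at 10 dpa lie above the dashed line of equal effects and the 105 lower ones below it, with pod7, pod10, POX5 and Lox1 at the upper left.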

How the data were processed

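RNA of drought and control ovules at 10 dpa was measured on 6 Affymetrix cotton arrays, 3 per group, out of 24 in the series. Per the submitters' processing notes RMA produced the deposited log2 values; its version is not given in the labels used here. In the deposited log2 table each probe set has a median of 0 over the 6 arrays of its stage, to within 5e-07, a step that no label states. The sources used here do not say which arrays went into one normalisation.

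The 159 control probe sets of 24132 were left out. limma 3.58.1 in R 4.3.3 fitted 8 group means to 24 arrays (lmFit and eBayes, 16 residual degrees of freedom), with contrasts of drought minus control at each stage and of the 10 dpa effect minus the mean of the other 3. Two-sided p-values were adjusted over 23973 probe sets (Benjamini-Hochberg). The code of the fit was tried on simulated data with independent noise at each probe set's residual spread. Such data hold no shift of whole arrays, so they cannot test the normalisation. No count of molecules lies behind an array signal, and the number of arrays limits the precision (median standard error 0.095).

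The platform annotation gave 697 probe sets 1 gene, 46 several and 23230 none. All 520 genes matched RefSeq entries (assembly Gossypium_hirsutum_v2.1), whose synonyms gave the names. Names can be old, and functions are textbook knowledge. Where a gene has several probe sets, 1 was picked by sense design, then suffix, then ID, whatever its values. Every gene with an informative name could be named, genes outside the functional groups only where called and changed by at least 2-fold, and of the genes without one the 3 largest rises and falls. The comparison and the gene groups were chosen with earlier results of these data known. Alternatives were the arrays in the fit, a replicate block, scaling on poly-A spikes (36 probe sets) or hybridisation controls (27), RNA integrity covariates, array weights, robust moderation, the threshold, each array left out, and the probe set standing for a gene.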

Additional observations from a re-analysis of the deposited data

Results flagged for a closer look

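Control probe sets that no comparison used differed between the groups at 10 dpa. The poly-A spikes were higher by 1.26 log2 units on the drought arrays than on the control arrays, their 5' minus 3' signal was higher by 0.83, and the hybridisation controls were higher by 0.38. The part of these differences in the results was not tested beyond the scalings and covariates. No group has more than 3 arrays, so single arrays were not screened as outliers.

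The drought effect at 10 dpa differed from the mean effect of 0, 5 and 20 dpa for 13729 probe sets by the test of that difference. Among named genes whose effect at 10 dpa and mean effect at the other stages were at least 2-fold and opposite in sign, pod7 was higher at 10 dpa than that mean by 5.40 and POX5 by 3.23, whereas GRPL1/rgp1 differed by -3.27 and ASP3 by -2.27.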

How the results depend on the processing

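The scaling sets the balance of higher and lower calls and therefore the direction of small rises. Scaled on the poly-A spikes, 22746 probe sets were called in place of 14445, 1184 of them higher, and 501 annotated genes in place of 416. The difference of the 10 dpa effect from the other stages was then called for 21100 probe sets in place of 13729. Only probe sets of sense design without a suffix for related transcripts gave 146 called genes of the 196 that had one. Leaving out 1 array of 10 dpa at a time gave 13736 to 14038 probe sets, 406 to 415 genes, and 13107 to 13762 probe sets for the difference from other stages. Deviations from the group mean correlated at -0.045, 0.031 and 0.11 between same-numbered drought and control arrays. Between arrays of unlike number they correlated at -0.12 to 0.089. With 3 arrays per group these values cannot show whether the replicate numbers pair the samples. A fit with the replicate number as a block called 13203 probe sets. Of the genes printed by name, 12 were called in the fit of all arrays and not with the block (CslD1, KCS38, Fb2, GHDEL61/bHLH110D, KTN1, MADS-2, GHPDI12, cys1, EF1A2, KT, DET3 and PEPC1). The other settings (10 dpa arrays alone, hybridisation controls, covariates, array weights, robust variance moderation, an adjusted p under 0.01, the mean of a gene's probe sets) kept the total counts of called probe sets and genes at 10 dpa, where they apply, within 1.5 times. The directions did move with the hybridisation controls, from 6831 to 2993 probe sets called higher and from 7614 to 12831 called lower. These settings were not run for the difference from the other stages.

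Of the 69 named genes called higher, 37 turned negative after scaling on the poly-A spikes: 4 outside the functional groups that differed by less than 2-fold and the following 33, with their log2 difference: KT (-1.08), gAPX (-1.04), FLA4 (-1.02), susC (-0.99), CPR1 (-0.99), Aux2 (-0.99), FLA6 (-0.98), CBL2 (-0.96), Di19-2 (-0.94), MPK6 (LOC107903096) (-0.93), GZFP (-0.87), VP (-0.84), GST (LOC107889738) (-0.81), DBP3b (-0.79), SEPALLATA3 (-0.68), COL5-D (-0.66), ACS3/ACS6 (-0.65), pldd (-0.63), MPK14 (-0.61), SAMDC (-0.55), Aux4 (-0.53), SOS2 (-0.52), GID1-4 (-0.44), MYB6 (-0.41), MPK23 (-0.38), DREB1C/CBF20 (-0.35), CNGC2 (-0.30), Di19-1 (-0.27), WRKY24/WRKY71 (-0.27), MYB1 (-0.19), CTL1 (-0.081), MFS (-0.062) and pod1 (-0.062). Of those not called, these had a positive difference before and were called lower after this scaling: G9 (-1.25), GAE3 (-1.25), SKD1 (-1.20), SCP (-1.19), nst3/NACL2 (-1.18), CBL3 (-1.18), Anx1 (-1.18), UGT1 (-1.17), LEGB (-1.15), vicB_At (-1.14), MADS-3 (-1.08), HIS3 (-1.07), FLA16 (-1.06), FLA7 (-1.05), FeSOD (-1.05), pod3 (-1.01) and MFP (-0.92). A further 29 genes printed by name, not called at a negative difference before, were called lower as well, for example ERF3 (-1.33). The rises of GHMYB36, CAT2/SU2, ACO3 and SusA1 stayed positive after this scaling but lost their call. After scaling on the hybridisation controls 11 turned negative, 1 of them outside the groups and the others KT (-0.20), gAPX (-0.16), FLA4 (-0.14), susC (-0.12), CPR1 (-0.11), Aux2 (-0.11), FLA6 (-0.11), CBL2 (-0.080), Di19-2 (-0.058) and MPK6 (LOC107903096) (-0.048). Of the genes not called at a positive difference, G9 (-0.38) and GAE3 (-0.37) were then called lower. The same 29 genes with a negative difference were called lower here too. The rises of DBP3b, SAMDC, GST (LOC107889738), Aux4, SOS2 and ACS3/ACS6 stayed positive after scaling on the hybridisation controls but lost their call. Those of MPK14, pldd, COL5-D, SEPALLATA3, VP and GZFP likewise stayed positive and lost their call. With a covariate of the 5' minus 3' signal, nst3/NACL2 was called lower at -0.30, and at -0.33 with that of the poly-A spikes, a covariate chosen after seeing the data. paC1, not called at -0.12, was called higher at 0.44 as the mean of its probe sets, since its other one differed by 1.00.

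Calls of 10 named genes were lost with the 5' minus 3' covariate (KCS38, Fb2, E6, GHDEL61/bHLH110D, KTN1, Pel, GHPDI12, EF1A2, SusA1 and DET3) and of 7 without drought replicate 2 (KCS38, E6, GHDEL61/bHLH110D, KTN1, GHPDI12, EF1A2 and DET3), against 1 to 3 without any other array; the cause was not tested. Of the genes not called, FLA7, FeSOD, NAC6, ACT1, HIS2B, Mat5-D, MFP, CPA-FAS-1, RPS4, pod3 and paC1 were called in the same direction without 1 or more of the arrays. Signal over background is not known on these centred values, so genes near the detection limit cannot be told from others.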

Other observations

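Upland cotton carries the genomes of 2 ancestors, A and D. Of the 520 annotated genes 260 lie on A chromosomes, 65 of them called higher and 139 lower with a median of -0.25, and 260 on D chromosomes, with 77 higher, 135 lower and a median of -0.22. Many probe sets may bind both copies of a gene, so these counts describe probe sets more than copies. Among the 196 genes with a sense probe set free of such a suffix, 63 were called higher and 83 lower, with a median of -0.12.

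Of 82 annotated genes with 2 or more called probe sets, 5 had probe sets in opposite directions. LOC107889072 ranged between -0.98 and 8.43, LOC107899648 between -1.29 and 1.44, LOC107899490 between -1.68 and 0.73, LOC107928594 between -0.15 and 0.47, and SKD1 between -0.45 and 0.39. Sizes also differed where directions did not, as for XTH, which fell by 0.75 on the chosen probe set and by 2.79 on the other, and for TubA4/TUA10, which fell by 0.27 and, on another probe set, by 2.02.

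Drought effects that had the same call at all 4 stages were a minority. Of the 69 named genes higher at 10 dpa 7 were higher at every stage (10.1%), beside 12.0% of all probe sets higher at 10 dpa. Of the 125 lower ones 20 were lower at every stage (16.0%), beside 15.5%. Calls made at 10 dpa and at no other stage in that direction numbered 6 of the 69 and 13 of the 125, or 8.7% and 10.4%, beside 26.4% and 17.8% of all probe sets called higher and lower.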
